A study of Mus musculus with 16 samples.

Results

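Ion transport and guanylin signalling were followed through 9 genes of the mouse ileum: Scnn1a, Slc9a3, Slc12a2, Cftr, Slc26a3, Slc26a6, Guca2a, Guca2b and Gucy2c. The genes were chosen by name for their roles in salt and fluid transport, with earlier results of these data known. All 9 were found among the 41740 genes listed in every file and among the 15267 with enough reads to be tested. RNA of the whole ileal wall was sequenced from male STAM mice at 20 weeks of age. All mice had received 200 ug of streptozotocin, a beta cell toxin, on day 2 and a high-fat diet from 4 weeks, which gives a diabetic model of steatohepatitis and liver cancer. The 4 Control-STAM-nonINS and the 6 Control-STAM-INS mice carried floxed insulin receptor alleles without Cre (Villin-Cre(-); InsR-flox), and the 6 ieIRKO-STAM-INS mice carried the same alleles with Cre (Villin-Cre(+); InsR-flox). The Villin promoter drives Cre in the intestinal epithelium, so muscle, stromal and immune cells of the wall keep the receptor. Both INS groups were injected with insulin degludec from 6 weeks, 2 times a day at up to 12 U per kg, and the nonINS group with saline. The groups are also called insulin-free controls, insulin-treated controls and ieIRKO mice below.

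Salt and water cross the gut epithelium through transporters on its luminal and basal faces. Sodium enters from the lumen through the exchanger encoded by Slc9a3 and, where it is assembled, the epithelial sodium channel ENaC. Chloride leaves crypt cells through the CFTR channel after the cotransporter of Slc12a2 has loaded it from the blood side, and exchangers of the SLC26 family trade luminal chloride for bicarbonate. Guanylin and uroguanylin are small peptides secreted into the lumen. They bind guanylate cyclase C, encoded by Gucy2c, and the cyclic GMP it makes opens CFTR and slows sodium uptake.

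The 16 libraries held between 13288018 and 22215382 reads in genes. Levels are given as CPM, counts of a gene per 1000000 reads after TMM scaling, and a gene was called changed at an edgeR quasi-likelihood adjusted p under 0.05 over all 15267 genes tested. Per the study's methods its replicates are mice, so the p-values are taken to measure the spread between mice of a group. Ileal genes marked the tissue in every group: Fabp6, the ileal bile acid binding protein, lay between 3265 and 7844 CPM over all libraries and Slc10a2, the ileal bile acid transporter, between 316.6 and 2041 CPM. The 4 markers of proximal small intestine summed to between 36.7 and 161.1 CPM over all libraries. Of these, the proximal factor Gata4 did not pass 5.49 CPM, while the iron exporter gene Slc40a1 reached 156.4 CPM. Insr, the targeted gene, averaged 62.7 ± 10.1 CPM (SD, n = 6) in the Control-STAM-INS libraries and 67.2 ± 13.4 CPM (SD, n = 6) in the libraries labelled ieIRKO-STAM-INS, with a log2 fold change of 0.10 and an edgeR adjusted p of 0.805. It was lower with insulin, at -0.75 (SE 0.139, edgeR adjusted p 0.00276). Counts of the whole gene in the whole wall, which also holds cells outside the epithelium, gave no drop of Insr reads in the libraries labelled ieIRKO-STAM-INS. Such counts do not measure the floxed part of the gene by itself. The cause was not tested, and the label is used as given. The 7 epithelial markers summed to 9365 CPM in Control-STAM-nonINS replicate 4 and to between 11680 and 16680 CPM in the other 15 libraries.

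Set against transcript length, the ligands stood far above their receptor and above all transporters. Guca2a averaged 1326 ± 273.0 CPM per kb (SD, n = 4) in Control-STAM-nonINS and Guca2b 659.5 ± 106.7 CPM per kb (SD, n = 4). Their receptor gene Gucy2c followed at 76.5 ± 13.8 CPM per kb (SD, n = 4), near Slc26a6 at 56.2 ± 21.8 and Slc12a2 at 45.2 ± 8.33 CPM per kb. Slc26a3 at 34.6 ± 5.98, Cftr at 16.5 ± 3.09, Slc9a3 at 8.39 ± 5.36 and Scnn1a at 6.16 ± 0.792 CPM per kb made up the lower end. The mean ± SD ranges of neighbours in this order overlapped from Gucy2c down to Slc26a3 and again from Cftr down to Scnn1a. In both INS groups the order differed only in that Slc26a3 stood above Slc12a2, at 39.2 ± 6.00 against 27.3 ± 2.5 CPM per kb in Control-STAM-INS (SD, n = 6).

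**Figure D1:**
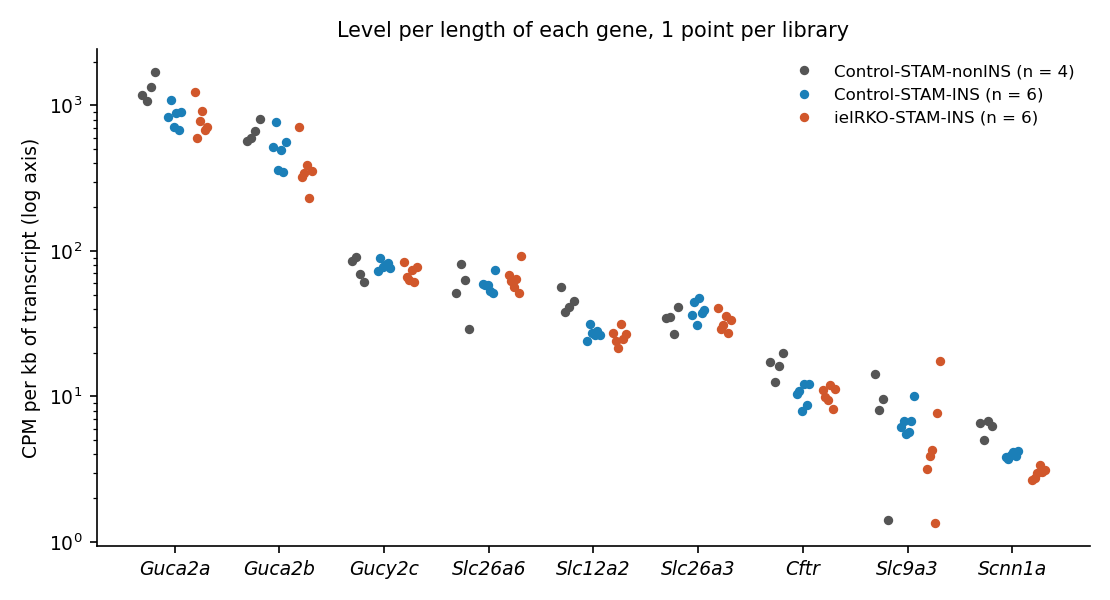
Level of each gene in CPM per kb of its principal transcript (log axis), with 1 point per library and colours for the insulin-free controls (4 libraries), insulin-treated controls (6) and ieIRKO mice (6). Guca2a and Guca2b lie above all other genes in every library, and Slc9a3 has the widest scatter.

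The ligand genes are neighbours on chromosome 4 of GRCm38, with 17135 bases between them and opposite strands. Guca2a spans chr4:119637704-119639471 on the plus strand and Guca2b chr4:119656607-119658954 on the minus strand. Since their levels moved together from library to library, as described further on, the 150 bases upstream of each gene's start are shown from RefSeq promoters (GRCm38.p6), 5′ to 3′ on the gene's own strand. Capitals mark the motifs found.
Guca2a, chr4:119637554-119637703: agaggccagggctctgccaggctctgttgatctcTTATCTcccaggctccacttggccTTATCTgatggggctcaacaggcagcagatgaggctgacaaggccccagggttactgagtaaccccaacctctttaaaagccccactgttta
Guca2b, chr4:119658955-119659104: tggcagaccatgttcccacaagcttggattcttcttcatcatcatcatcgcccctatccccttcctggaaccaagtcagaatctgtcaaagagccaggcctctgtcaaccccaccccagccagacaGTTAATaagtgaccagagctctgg
The motifs searched on both strands were those of gut transcription factor families and were chosen with the sequences in view: TTATCT for GATA factors, GTTAAT for HNF1, TGTTTAC for forkhead factors and TTTATG for CDX factors. The Guca2a window held TTATCT at 116 to 111 and at 92 to 87 bases before the start, and the Guca2b window held GTTAAT at 24 to 19 bases before the start. TTATCT occurred in 5.65% and GTTAAT in 3.71% of 32851 RefSeq promoter windows of the same length, TGTTTAC in 1.80% and TTTATG in 6.33%. A match in letters is a description of the window only.

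The first question was how ileal salt transport and guanylin genes differed when diabetic STAM mice received insulin. Of the 9 genes, 4 were lower in the insulin-treated than in the insulin-free controls and none was higher: the sodium channel subunit Scnn1a, the chloride loader Slc12a2, the chloride channel Cftr and the ligand Guca2a. Over all genes tested, 10.5% were called in this comparison, 6.76% lower and 3.73% higher. The median log2 fold change was -0.38 over the 9 genes and -0.0043 over all genes. Since the 9 were chosen with earlier results of these data known, their share and median are a description only. In bulk RNA of the whole wall, fewer cells of a type and less RNA per cell cannot be told apart. The sums of the epithelial, enterocyte, crypt and goblet cell markers overlapped between these groups and none of the markers in these 4 lists was called, while the 6 enteroendocrine markers summed to between 149.1 and 294.8 CPM without insulin and between 77.0 and 158.5 CPM with it, 4 of the 6 being called lower. The tuft cell markers summed to between 18.8 and 22.04 CPM without insulin and between 23.1 and 35.1 CPM with it, and 1 of the 3 tested, Trpm5, was called higher. Markers were also called in 3 other lists: Itln1 of the 4 Paneth cell markers (higher), Slc40a1 (higher) and Cybrd1 (lower) of the 4 proximal ones, whose sums were 36.7 to 75.4 CPM without insulin and 62.5 to 117.8 CPM with it, and Cela1 of the pancreatic ones (lower). The part of these cells in the results was not tested. With library sizes set from the 7 epithelial markers in place of TMM, an alternative added after the data were seen, 1131 of the 1215 genes called were lower, against 1032 of 1602, and the same 4 of the 9 genes were called.

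The second question was how the epithelial insulin receptor genotype bore on these genes under insulin. None of the 9 was called between the INS groups by edgeR's quasi-likelihood test, where 0.223% of all genes were. At an unadjusted p under 0.05 there were 2, Scnn1a and Slc26a3, both lower in ieIRKO-STAM-INS, where 11.3% of all genes passed that threshold. DESeq2 and edgeR's likelihood ratio test each called 1, Scnn1a, where they called 0.806% and 0.59% of all genes. The median log2 fold change was -0.11 over the 9 genes and 0.02 over all genes. The Control-STAM-INS libraries are shared with the comparison of insulin against none.

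Against Control-STAM-nonINS, the ieIRKO-STAM-INS libraries were lower in 4 of the 9, again Scnn1a, Slc12a2, Cftr and Guca2a. Of all genes, 13.3% were called in this comparison and 7.59% were called lower. The median log2 fold change was -0.67 over the 9 genes and 0.01 over all genes. This comparison shares its 4 control libraries with the comparison of insulin against none, so the same 4 genes in both are not separate evidence. The enteroendocrine markers summed to between 80.2 and 162.1 CPM in ieIRKO-STAM-INS, and 2 of the 6 were called lower than in Control-STAM-nonINS. The Paneth cell markers summed to between 716 and 1328 CPM against 2218 to 3825 CPM, with 2 of 4 called lower (Lyz1 and Ang4). The B and plasma cell markers summed to between 1655 and 3115 CPM against 718 to 1771 CPM, with 3 of 6 called higher. The tuft cell sums, 22.3 to 34.2 CPM against 18.8 to 22.04 CPM, did not overlap, and 1 of 3 was called higher. The distal ileum markers summed to between 5382 and 8463 CPM against 7717 to 11560 CPM, with Fabp6 called lower (log2 fold change -0.59, edgeR adjusted p 0.0338), and of the proximal ones Slc40a1 was called higher and Cybrd1 lower. The enterocyte, fibroblast and pancreatic lists each had 1 marker called lower. The part of cell types or of position along the gut in these values was not tested.

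**Figure D2:**
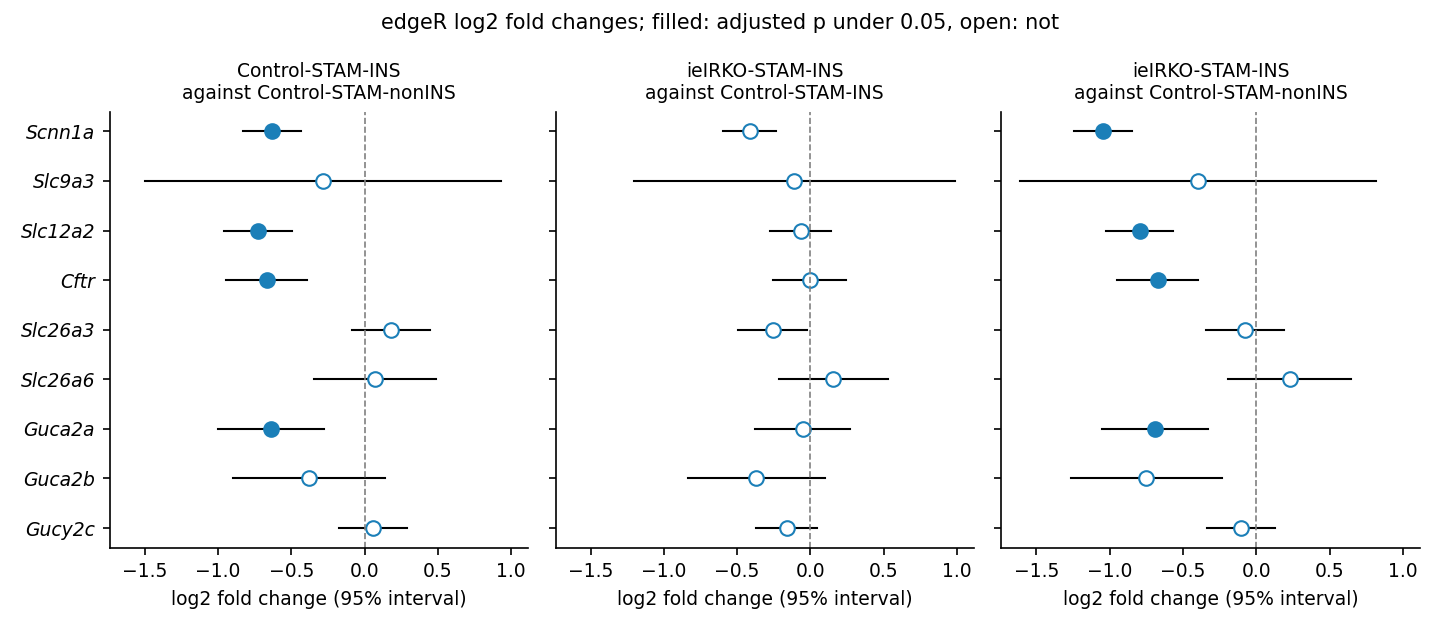
Log2 fold changes of the 9 genes in the 3 comparisons (edgeR), with 95% intervals; filled points have an adjusted p under 0.05 over all genes tested. Scnn1a, Slc12a2, Cftr and Guca2a are filled in both comparisons against Control-STAM-nonINS, and no point is filled between the INS groups.

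Among the sodium uptake genes, Scnn1a, the alpha subunit of ENaC (chr6:125320659-125344943, plus strand), held the 3 groups apart without overlap. It measured 23.2, 17.6, 23.7 and 21.8 CPM in the Control-STAM-nonINS libraries. In Control-STAM-INS it ranged from 12.9 to 14.8 CPM with a median of 13.8, and in ieIRKO-STAM-INS from 9.33 to 11.9 CPM with a median of 10.4. Every library given insulin was below every library that was not, and every ieIRKO-STAM-INS library below every Control-STAM-INS library. The log2 fold change with insulin was -0.63 (SE 0.0998, edgeR adjusted p 0.000745), which corresponds to 0.645 times the level without it.

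Between the INS groups, the log2 fold change of Scnn1a was -0.41 (95% interval -0.59 to -0.23), with an edgeR adjusted p of 0.0877 over all genes. DESeq2 gave an adjusted p of 0.0093 and the likelihood ratio test 0.0443, the only 2 of 10 alternatives with a call. The range over all alternatives was 0.0093 to 0.613, the highest with epithelial scaling, where the log2 fold change was -0.26. In the 12 fits that left out 1 library the edgeR adjusted p lay between 0.0575 and 0.229, so none gave a call. The exact permutation test on log2 CPM, two-sided, gave p = 0.00217, the smallest that 924 arrangements of 6 against 6 allow. ieIRKO mice against insulin-free controls gave -1.05 (SE 0.10, edgeR adjusted p 9.18e-06). Groups did not overlap, in the lower direction, for 6.23%, 0.406% and 4.76% of all genes in the comparisons of insulin against none, of genotype under insulin and of ieIRKO mice against insulin-free controls.

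Of the 4 Paneth cell markers, 3 were called lower in ieIRKO-STAM-INS than in the other INS group (Lyz1, Ang4 and Itln1, but not Mmp7). The 4 summed to between 2825 and 4671 CPM in Control-STAM-INS and to between 716 and 1328 CPM in ieIRKO-STAM-INS. The 6 B and plasma cell markers summed to between 959 and 1541 CPM and to between 1655 and 3115 CPM, and none of them was called, though all 6 had an unadjusted p under 0.05. The part of these cells in the Scnn1a values was not tested. Scnn1a also varied little within groups, with a pooled SD of 0.13 on the log2 scale, a spread above that of only 5.72% of the 4473 genes of like level (within 2-fold in mean CPM), whose median was 0.22.

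The partners that ENaC needs for full activity were nearly silent. Scnn1b, the beta subunit, held at most 8 reads in a Control-STAM-nonINS library, 0 in Control-STAM-INS and at most 1 in ieIRKO-STAM-INS. Scnn1g, the gamma subunit, was at 3.68 CPM (55 reads) in Control-STAM-nonINS replicate 1. It was at 0.0784 to 0.671 CPM in the others of that group. Every library of the INS groups held at most 1 read of Scnn1g, at most 0.0658 CPM. Neither had enough reads to be tested. Prss8, the membrane protease prostasin that activates ENaC, was lower with insulin: its 4 Control-STAM-nonINS libraries lay between 24.4 and 35.8 CPM and its Control-STAM-INS libraries between 14.8 and 18.1 CPM. Its log2 fold change was -0.77 (SE 0.175, edgeR adjusted p 0.0096). In ieIRKO-STAM-INS it ranged from 11.9 to 26.2 CPM, overlapping both other groups, with 0.31 against Control-STAM-INS (adjusted p 0.484) and -0.46 against Control-STAM-nonINS (adjusted p 0.0885).

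Slc9a3, which encodes the sodium/hydrogen exchanger NHE3 (chr13:74121457-74169442, plus strand), varied most of the 9. The Control-STAM-nonINS libraries held 73.6, 41.2, 49.6 and 7.26 CPM. Control-STAM-INS ranged from 28.3 to 51.9 CPM with a median of 33.1, and ieIRKO-STAM-INS from 6.90 to 89.8 CPM with a median of 20.9. The groups overlapped in all 3 comparisons, and the lowest and the highest library were both labelled ieIRKO-STAM-INS, replicates 4 and 6. Those libraries held 106 and 1529 reads of Slc9a3.

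The pooled SD of Slc9a3 within groups was 1.06 on the log2 scale, above that of 99.6% of the 4764 genes of like level, whose median was 0.17. The log2 fold change was -0.29 with insulin (95% interval -1.5 to 0.93, edgeR adjusted p 0.825) and -0.11 between the INS groups (95% interval -1.21 to 0.98, adjusted p 0.957). These intervals are wide enough to hold large changes in either direction, and leaving out Control-STAM-nonINS replicate 1 turned the first to 0.11. The genotype value ran from -0.74 without ieIRKO-STAM-INS replicate 6 to 0.10 without replicate 4. Means of log2 CPM were 5.02 without insulin, 5.11 in the insulin-treated controls and 4.57 in the ieIRKO mice, so the sign of the difference with insulin also depended on the measure (exact permutation p = 0.933). ieIRKO mice gave -0.40 against the insulin-free controls (95% interval -1.61 to 0.82, edgeR adjusted p 0.714). That value was -1.02 without ieIRKO-STAM-INS replicate 6 and -0.0014 without Control-STAM-nonINS replicate 1.

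**Figure D3:**
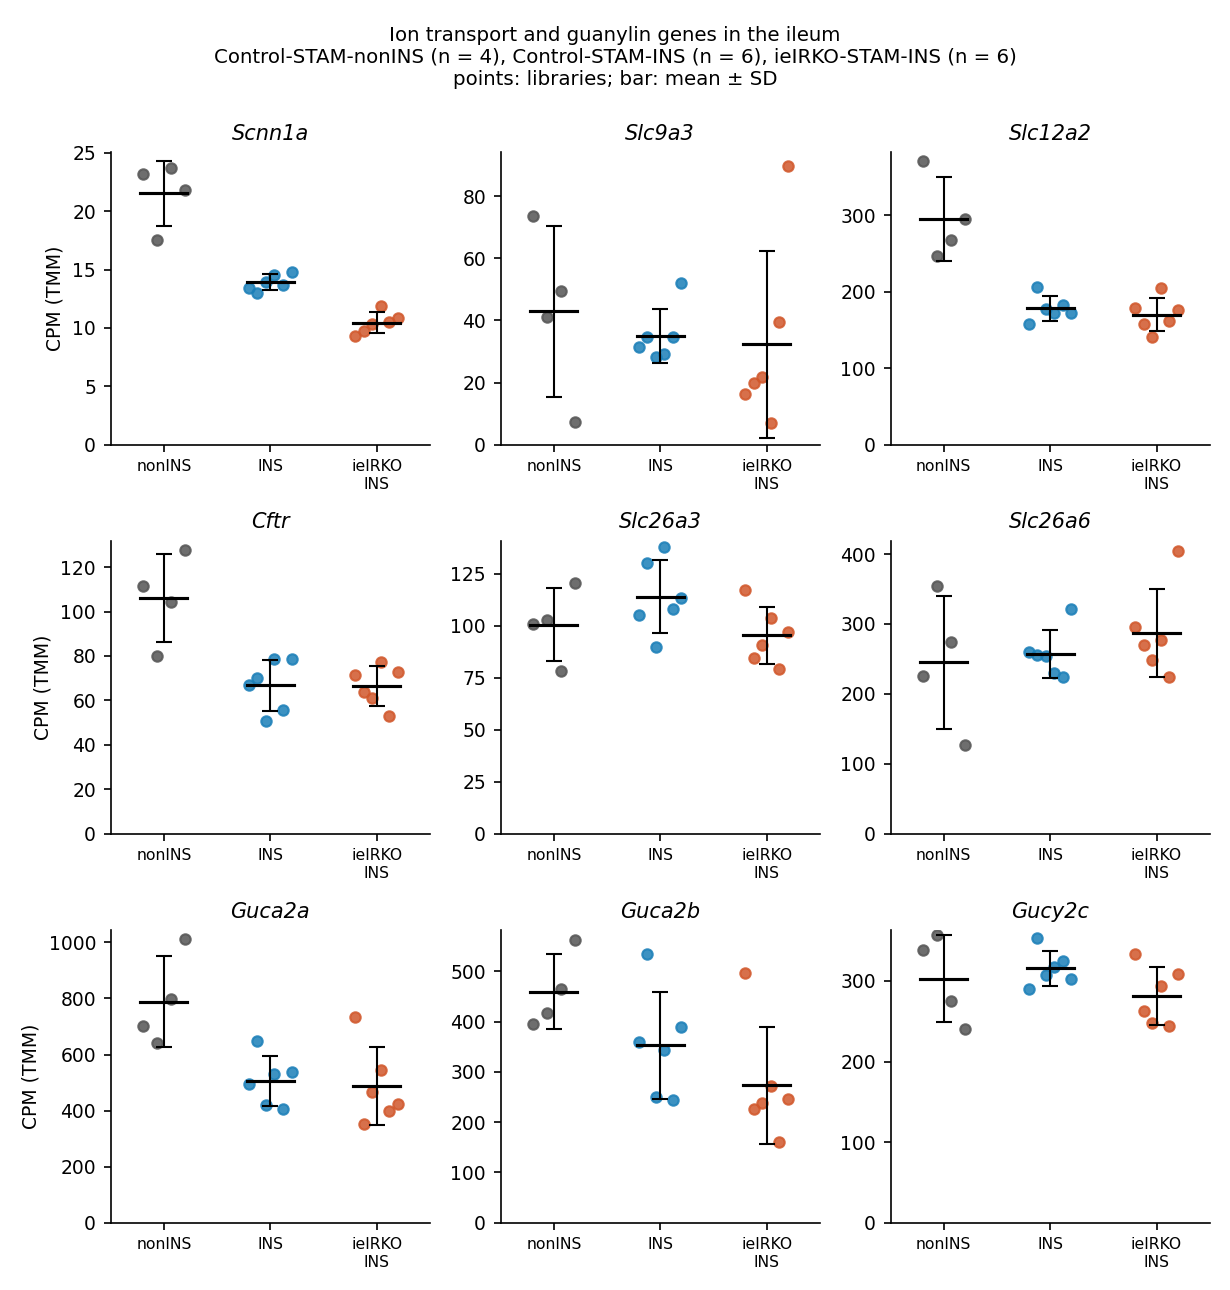
CPM of the 9 genes in each library (points), with the mean and SD of the insulin-free controls (4 libraries), insulin-treated controls (6) and ieIRKO mice (6); each axis starts at 0. The Scnn1a groups step down without overlap, Slc12a2 and Cftr separate the libraries given insulin from the others, and Slc9a3 spreads from 6.90 to 89.8 CPM within ieIRKO-STAM-INS.

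Slc12a2, the basolateral sodium-potassium-chloride cotransporter NKCC1 on chromosome 18, fell with insulin. Its 4 Control-STAM-nonINS libraries held 371, 247.1, 267.2 and 294.4 CPM. Control-STAM-INS ranged from 157.2 to 206.5 CPM (median 175) and ieIRKO-STAM-INS from 141.2 to 204.8 CPM (median 168.5), so no library given insulin reached the lowest one without it. The log2 fold change with insulin was -0.73 (SE 0.118, edgeR adjusted p 0.000919). Between the INS groups it was -0.07 (95% interval -0.28 to 0.14, adjusted p 0.848), and against Control-STAM-nonINS the ieIRKO-STAM-INS libraries gave -0.80 (SE 0.117, adjusted p 0.000504).

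Cftr, the chloride and bicarbonate channel of the luminal membrane (chr6:18170687-18322768, plus strand), was also lower with insulin. It measured 111.3, 80.1, 104.5 and 127.9 CPM without insulin. Control-STAM-INS ranged from 50.9 to 78.5 CPM (median 68.4) and ieIRKO-STAM-INS from 52.9 to 77.3 CPM (median 67.5). The INS groups covered nearly the same range, and the nearest values on either side of the gap to Control-STAM-nonINS were 78.5 and 80.1 CPM. The log2 fold change was -0.67 (SE 0.141, edgeR adjusted p 0.00579) with insulin and -0.01 (95% interval -0.26 to 0.24, adjusted p 0.990) between the INS groups. Against Control-STAM-nonINS, ieIRKO-STAM-INS gave -0.67 (SE 0.141, adjusted p 0.00472). An antisense gene overlapping Cftr, Gm15592, averaged 0.0347 CPM against 76.5 CPM for Cftr. A processed pseudogene, Gm15595, overlaps Cftr on the same strand, as Gm9359 does Slc26a3, and neither has a value of its own here, so counts of Cftr and Slc26a3 are uncertain to the extent that reads match both genes.

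The exact permutation test, two-sided, gave p = 0.00476 for Scnn1a, Slc12a2 and Cftr in both comparisons against Control-STAM-nonINS. That is the smallest that 210 arrangements of 4 against 6 allow, and it restates that these groups did not overlap. In all, 27 such tests were run over the 9 genes and 3 comparisons. In all 10 alternative settings and all 10 fits that left out 1 library, these 3 genes stayed called in the comparison with insulin, and likewise in that of ieIRKO mice against insulin-free controls.

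The luminal anion exchangers showed no called difference. Slc26a3 (DRA, chr12:31390871-31473917, plus strand) takes up chloride in exchange for bicarbonate and lay between 78.2 and 121 CPM in Control-STAM-nonINS, between 89.8 and 138 CPM in Control-STAM-INS and between 79.1 and 117 CPM in ieIRKO-STAM-INS. Its log2 fold change was 0.18 with insulin (95% interval -0.08 to 0.45, edgeR adjusted p 0.432) and -0.26 between the INS groups (95% interval -0.50 to -0.02), where the unadjusted p of 0.0455 became 0.430 after adjustment. Against Control-STAM-nonINS, ieIRKO-STAM-INS gave -0.08 (95% interval -0.34 to 0.19, adjusted p 0.745).

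Slc26a6 (PAT1, chr9:108853283-108913049, plus strand), which exchanges chloride for bicarbonate or oxalate, held 225.2, 354.2, 274.3 and 127 CPM in Control-STAM-nonINS. The medians were 255.2 CPM (223.7 to 320.8) in Control-STAM-INS and 273.6 CPM (224.2 to 404.8) in ieIRKO-STAM-INS, and the groups overlapped throughout. The log2 fold changes were 0.07 with insulin (95% interval -0.35 to 0.49, edgeR adjusted p 0.873) and 0.16 by genotype (95% interval -0.22 to 0.53, adjusted p 0.801), and ieIRKO mice gave 0.23 against the insulin-free controls (95% interval -0.19 to 0.65, adjusted p 0.511). The lowest library, Control-STAM-nonINS replicate 4, had the lowest sum of epithelial markers and the lowest Slc9a3 of its group. It also had the highest Cftr, Guca2a and Guca2b of that group, and the part of epithelial content was not tested. Without this library the Slc26a6 value with insulin was -0.14, and that of ieIRKO mice against the insulin-free controls 0.01. Without Control-STAM-nonINS replicate 2 they were 0.31 and 0.47. Reads of Slc26a6 per read of Slc26a3 averaged 2.56 ± 1.17 (SD, n = 4) without insulin, 2.31 ± 0.481 (SD, n = 6) in the insulin-treated controls and 3.02 ± 0.604 (SD, n = 6) in the ieIRKO mice.

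Guca2a, which encodes guanylin, was lower with insulin, though its call was not firm. It measured 702.6, 641, 796.2 and 1011 CPM without insulin, against 404.5 to 649.5 CPM (median 511.9) in Control-STAM-INS and 353.9 to 735 CPM (median 445.9) in ieIRKO-STAM-INS. Most libraries given insulin lay under all of Control-STAM-nonINS, but Control-STAM-INS replicate 2 at 649.5 CPM and ieIRKO-STAM-INS replicate 1 at 735 CPM reached into its range. The log2 fold change with insulin was -0.64 (SE 0.184, edgeR adjusted p 0.0340) and the exact permutation p was 0.00952. The call held in only 2 of the 10 fits that left out 1 library, those without replicate 2 of either group, and the adjusted p reached 0.127 (log2 fold change -0.50) without Control-STAM-nonINS replicate 4.

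Between the INS groups, Guca2a gave -0.05 (95% interval -0.38 to 0.27, edgeR adjusted p 0.926). Against Control-STAM-nonINS, ieIRKO-STAM-INS gave -0.69 (SE 0.184, adjusted p 0.0192), which became 0.0662 without Control-STAM-nonINS replicate 4 and 0.0569 when those groups were fitted alone.

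Guca2b, which encodes uroguanylin, was called in none of the 3 comparisons. It held 394.6, 416.7, 465.6 and 561.9 CPM in Control-STAM-nonINS. Control-STAM-INS ranged from 244.3 to 534.3 CPM (median 351.3) and ieIRKO-STAM-INS from 161 to 497.3 CPM (median 241.9), with 1 library of 6 in each above the lowest value without insulin. The log2 fold changes were -0.38 with insulin (95% interval -0.90 to 0.14, edgeR adjusted p 0.398), -0.37 by genotype (95% interval -0.84 to 0.10, adjusted p 0.589) and -0.75 for ieIRKO mice against insulin-free controls (95% interval -1.27 to -0.24, adjusted p 0.0692). The last passed the threshold with DESeq2 (adjusted p 0.0265), with the likelihood ratio test (0.036) and without ieIRKO-STAM-INS replicate 1, at -1.01 (adjusted p 0.00431). The value by genotype was -0.63 without ieIRKO-STAM-INS replicate 1 and -0.21 without Control-STAM-INS replicate 2, and was called in neither fit. The lowest Guca2b, 161 CPM, was in ieIRKO-STAM-INS replicate 5, which also had the lowest sum of enterocyte markers of all libraries, 4385 CPM against a group median of 12740.

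The ligands rose and fell together between libraries. Pearson's r of their log2 CPM over the 16 libraries, which share scaling and tissue make-up, was 0.889, and 0.896 after the group means were removed. Among 9441 genes of at least 10 CPM, Guca2b ranked second in likeness to Guca2a on these deviations, after Ptgr1 at 0.908. In the reverse ranking, Guca2a was not among the 3 genes most like Guca2b, Ephx2 (0.936), Ano6 (0.911) and Pisd (0.907). On log2 CPM neither ligand was among the 3 genes most like the other, so close likeness was not particular to the pair. Control-STAM-INS replicate 2 and ieIRKO-STAM-INS replicate 1 had the highest level of both ligands in their groups, and also the highest sum of enterocyte markers, 23650 and 24440 CPM. In the insulin-free controls it was otherwise: replicate 4 had the highest level of both ligands and the lowest enterocyte sum, 14260 CPM. The part of enterocyte content in the ligands' levels was not tested. Reads of Guca2b per read of Guca2a averaged 0.588 ± 0.043 (SD, n = 4) without insulin, 0.686 ± 0.088 (SD, n = 6) in the insulin-treated controls and 0.551 ± 0.10 (SD, n = 6) in the ieIRKO mice, ranges that overlap. Both ligands varied more within groups than most genes of like level, Guca2b more than 92.8% of 864 and Guca2a more than 78.4% of 468.

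**Figure D4:**
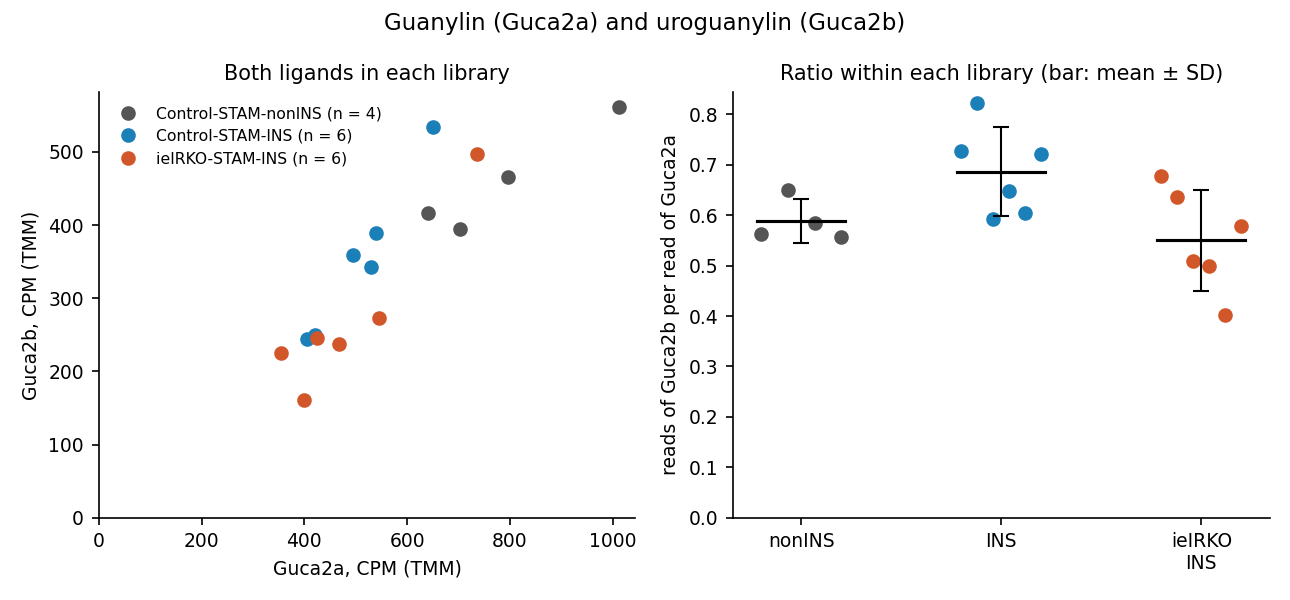
Left, Guca2b against Guca2a in CPM, 1 point per library, with colours for the insulin-free controls (4 libraries), insulin-treated controls (6) and ieIRKO mice (6); right, reads of Guca2b per read of Guca2a with mean and SD by group. The points follow a line (r = 0.889 on log2 CPM over 16 libraries), and the ratio lies between 0.403 and 0.823.

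The receptor gene was called in none of the comparisons. Gucy2c, guanylate cyclase C (chr6:136697284-136781765, minus strand), held 338.8, 357.2, 275.1 and 240.7 CPM in Control-STAM-nonINS, 289.4 to 352.7 CPM (median 311.9) in Control-STAM-INS and 244 to 333.5 CPM (median 278.2) in ieIRKO-STAM-INS. The ranges of the groups overlapped in each comparison. Its log2 fold change was 0.06 with insulin (95% interval -0.17 to 0.29, edgeR adjusted p 0.808) and -0.16 by genotype (95% interval -0.37 to 0.04, adjusted p 0.587), and -0.10 in the ieIRKO mice against the insulin-free controls (95% interval -0.33 to 0.13, adjusted p 0.593). All 3 intervals leave out changes of the size seen for Slc12a2 or Cftr with insulin. Reads of Gucy2c per read of its ligands together averaged 0.254 ± 0.085 (SD, n = 4) without insulin, 0.381 ± 0.081 (SD, n = 6) in the insulin-treated controls and 0.388 ± 0.074 (SD, n = 6) in the ieIRKO mice, and their ranges overlapped.

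Downstream of the receptor, Prkg2, the cyclic GMP-dependent kinase of enterocytes, lay between 31.9 and 51.8 CPM in all libraries, with log2 fold changes of -0.24 with insulin (edgeR adjusted p 0.220) and 0.19 by genotype (adjusted p 0.548). Pde9a, a phosphodiesterase that breaks down cyclic GMP, ranged from 219.5 to 378.5 CPM in Control-STAM-nonINS and from 163.8 to 226.7 CPM in ieIRKO-STAM-INS, which overlap only narrowly. It was called lower there, at -0.61 (SE 0.159, adjusted p 0.0167). That made 1 of the 10 genes listed for guanylin and cyclic nucleotide signalling called lower, near the 7.59% of all genes called lower in that comparison.

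A further 60 genes of salt and water transport were listed, of which 54 could be tested. With insulin, 6 were called lower and 1 higher, between the INS groups none (12 at an unadjusted p under 0.05, against 11.3% of all genes, and none by DESeq2), and 9 were lower in the ieIRKO mice than in the insulin-free controls. Without Control-STAM-nonINS replicate 1 the calls with insulin came to 3, and without Control-STAM-nonINS replicate 3 those of the last comparison to 5. The 7 of 54 and 9 of 54 stand beside the 10.5% and 13.3% of all genes called in either direction, and the 6 and 9 called lower beside 6.76% and 7.59%. The median log2 fold changes of the 54 were -0.04, -0.11 and -0.20.

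Of the 10 genes listed for hormone and kinase control, 3 were lower with insulin and 4 were lower in the ieIRKO mice than in the insulin-free controls, where 6.76% and 7.59% of all genes were called lower. Wnk4, a kinase that sets chloride cotransport and ENaC activity, lay between 11.5 and 23.8 CPM in Control-STAM-nonINS and between 6.06 and 7.87 CPM in Control-STAM-INS, with a log2 fold change of -1.20 (SE 0.177, edgeR adjusted p 0.000509). Stk39, which encodes SPAK, the kinase between WNK kinases and NKCC1, changed by -0.54 (SE 0.137, adjusted p 0.0178). Hsd11b2 inactivates glucocorticoids and so keeps the mineralocorticoid receptor open to aldosterone. It lay between 43.9 and 85.9 CPM without insulin and between 26.4 and 43.7 CPM in Control-STAM-INS, with a log2 fold change of -0.82 (SE 0.176, adjusted p 0.00735).

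All 3 were also lower in the ieIRKO mice than in the insulin-free controls, Wnk4 at -0.91 (SE 0.176, edgeR adjusted p 0.00304), Stk39 at -0.64 (SE 0.138, adjusted p 0.00559) and Hsd11b2 at -1.24 (SE 0.177, adjusted p 0.000483). Sgk1, the corticosteroid-induced kinase that holds ENaC at the membrane, joined them at -1.76 (SE 0.454, adjusted p 0.0208), with 900.4, 726.4, 875.0 and 326.3 CPM in Control-STAM-nonINS against 49.9 to 393.8 CPM (median 186.9), the lowest of the former lying inside the range of the latter. With insulin, Sgk1 gave -1.40 and an adjusted p of 0.0634. Nr3c2, the mineralocorticoid receptor itself, lay between 37.4 and 70.4 CPM over all libraries and was not called. Over the 16 libraries, Hsd11b2 was among the genes most like Scnn1a in log2 CPM (r = 0.911, second of 9441 after Tst at 0.948), a likeness that includes the steps between groups.

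On the basolateral side, Kcnq1, a potassium channel that recycles potassium during chloride secretion, lay between 91.8 and 143.3 CPM in Control-STAM-nonINS, 55.2 and 74.7 CPM in Control-STAM-INS and 54.9 and 81.4 CPM in ieIRKO-STAM-INS. Its log2 fold changes were -0.73 with insulin (SE 0.125, edgeR adjusted p 0.00138), 0.03 between the INS groups and -0.70 for ieIRKO mice against insulin-free controls (SE 0.125, adjusted p 0.00162). Slc4a2, the basolateral chloride/bicarbonate exchanger AE2, gave -0.38 with insulin (SE 0.111, adjusted p 0.0352) and -0.57 in the ieIRKO mice against the insulin-free controls (SE 0.110, adjusted p 0.00293). Another potassium channel gene, Kcnk5, was lower in the latter comparison, at -0.81 (SE 0.244, adjusted p 0.0391), and gave -0.43 with insulin (adjusted p 0.293).

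Car13, a cytosolic carbonic anhydrase, was the one gene called higher with insulin, at 0.53 (SE 0.161, edgeR adjusted p 0.0419), with 25.3 to 38.6 CPM in Control-STAM-nonINS and 37.9 to 57.0 CPM in Control-STAM-INS. Of the water channels, all 5 tested had negative log2 fold changes in both comparisons against Control-STAM-nonINS, as had 7726 and 7463 of all 15267 genes, and 1 was called in the ieIRKO mice, where 7.59% of all genes were called lower: Aqp1, found in vessels, at -0.91 in ieIRKO-STAM-INS (SE 0.270, adjusted p 0.0368). Of the 54 genes, 5 separated the insulin groups without overlap in the lower direction (Prss8, Kcnq1, Hsd11b2, Tsc22d3 and Wnk4), near the 6.23% of all genes, while 3 of the 9 chosen genes did. Between the INS groups 1 did so (Slc9a2, another sodium/hydrogen exchanger, against 0.406% of all genes) and in the ieIRKO mice against the insulin-free controls 4 did (Slc4a2, Kcnq1, Hsd11b2 and Wnk4, against 4.76% of all genes).

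**Figure D5:**
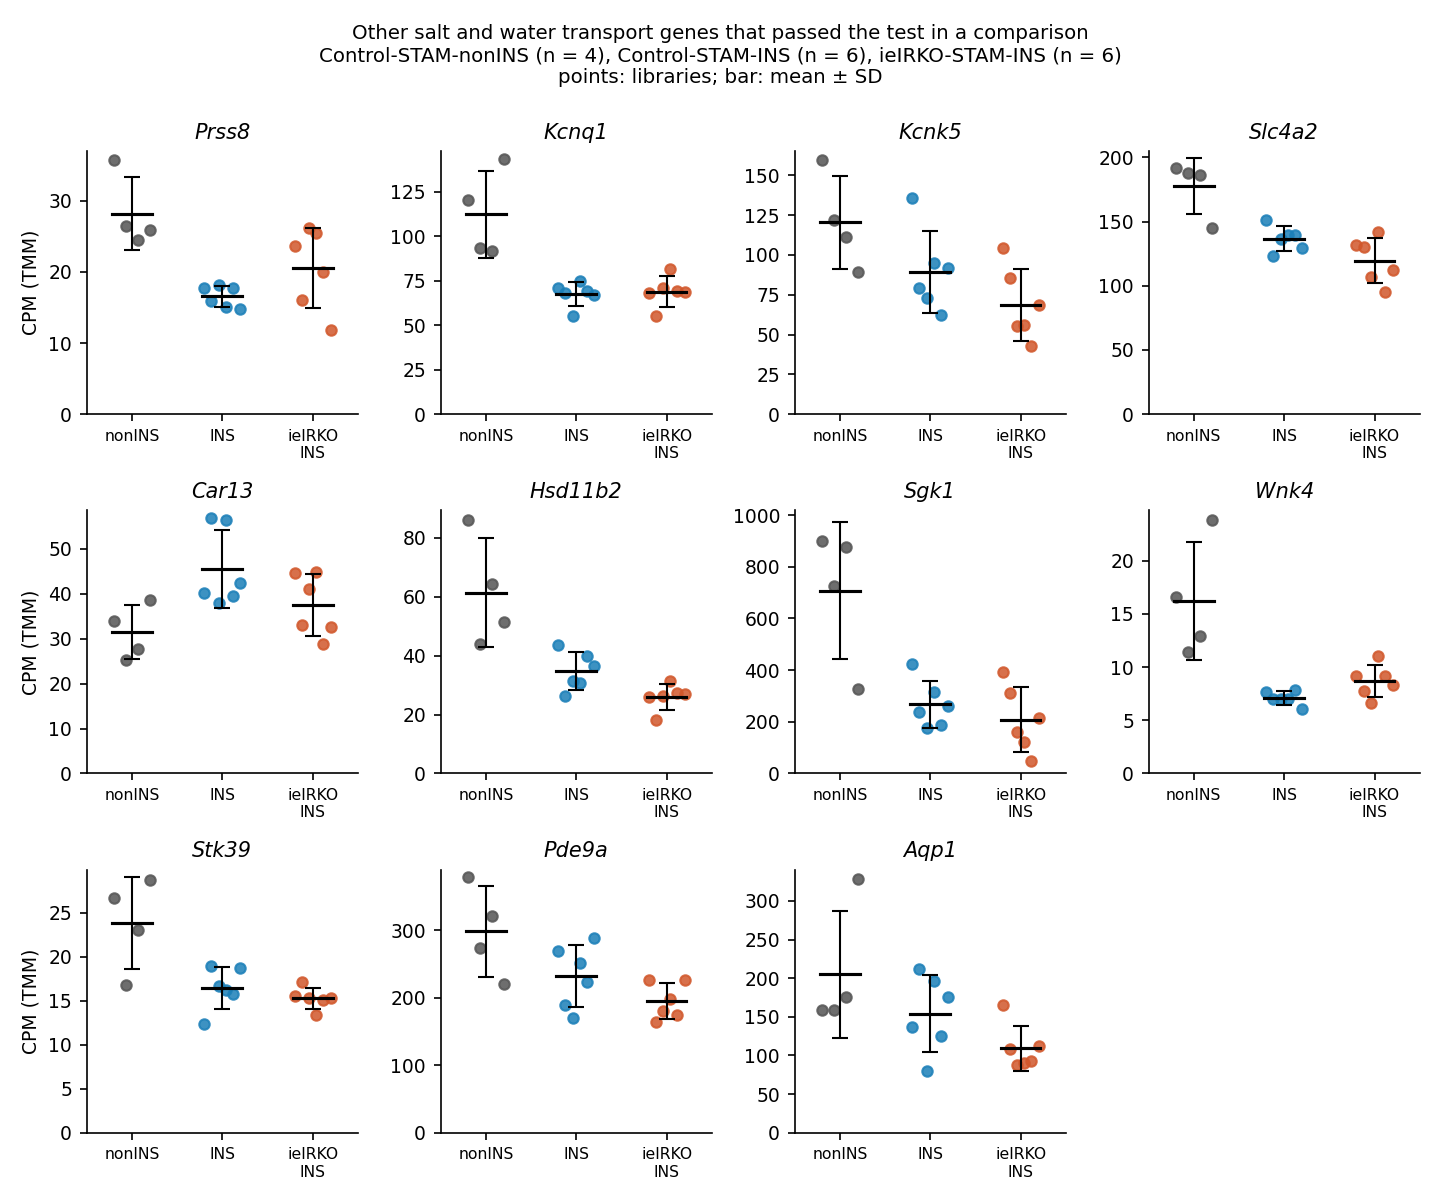
CPM of the 11 other salt and water transport genes that were called in at least 1 comparison, in each library (points), with the mean and SD of the insulin-free controls (4 libraries), insulin-treated controls (6) and ieIRKO mice (6); each axis starts at 0. Kcnq1, Wnk4 and Hsd11b2 lie lower in the libraries given insulin, and Car13 lies higher in Control-STAM-INS.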

How the data were processed

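Stranded libraries of 16 samples, made from total RNA of whole ileal wall, were run on a NovaSeq. Per the study's methods and labels, the authors used CLC Genomics Workbench 21.0.3 for alignment to GRCm38 and deposited, for each sample, raw read counts per gene. The strand setting and the treatment of reads with several matches are not given in the sources used here. Of the 41740 names, 97.5% were found in GENCODE M21, which gave positions and transcript lengths.

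R 4.3.3 was used on the deposited counts. The filter was filterByExpr (minimum count 10, minimum total 15), which left 15267 genes, and these were scaled by TMM and fitted in edgeR 4.0.16 (robust quasi-likelihood, the 3 groups together, no covariate), with Benjamini-Hochberg adjustment over all genes tested. Standard errors were taken as the log2 fold change over the square root of F, and 95% intervals from the normal distribution. Exact two-sided permutation tests compared means of log2 CPM (prior count 2). The fitting script was tested on simulated data. Totals of 13288018 to 22215382 reads per library set the depth.

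Alternatives were DESeq2 1.42.0, other size factors and filters, a likelihood ratio test, a replicate block, fits of 2 groups only, alpha-defensins left out of library sizes, and each library left out. Library sizes from 7 epithelial markers were added after the data were seen. The 9 genes, the lists, the markers and the motifs were chosen with earlier results of these data known. The genes named besides the 9 are Scnn1b, Scnn1g, Prkg2 and Insr, each listed pathway gene called in a comparison with a mean over 1 CPM in the higher group, and the 3 genes most correlated with each of the 9. Tsc22d3, Slc9a2, Nr3c2 and single cell type markers were named after their values were seen, as was the epithelial level of Control-STAM-nonINS replicate 4. No 2 libraries of a group agreed within sampling noise.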

Additional observations from a re-analysis of the deposited data

Results flagged for a closer look

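Slc9a3 in Control-STAM-INS replicate 6 stood apart from the other 5 libraries of its group. It measured 51.9 CPM, against 28.3 to 34.7 CPM in the others, and on the log2 scale its gap to the nearest library was 0.661 of the whole range of the group. Dixon's test, which looks at both ends of the range, was made for 27 combinations of gene and group, of which chance alone would give about 1.35. The same replicate had the highest Slc26a6 of its group, at 320.8 CPM. Its sum of epithelial markers, 16440 CPM, was inside the range of the other libraries. Without it, the log2 fold change of Slc9a3 between the INS groups was 0.04 in place of -0.11, and neither value was called.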

How the results depend on the processing

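Scnn1a, Cftr and Slc12a2 kept their calls and direction in both comparisons against Control-STAM-nonINS under all 10 alternatives and in all fits that left out 1 library. The number of the 9 genes called lay between 3 and 4 of 9 with insulin and between 3 and 5 in the ieIRKO mice against the insulin-free controls under these alternatives, and over fits leaving out 1 library between 3 and 4, 0 and 0 (genotype), and 3 and 5. Between the INS groups it was 1 with DESeq2 and 1 with the likelihood ratio test, in place of 0. DESeq2 called 123 and the likelihood ratio test 90 of all genes there, in place of 34. Against Control-STAM-nonINS, ieIRKO-STAM-INS gave 804 called genes with epithelial scaling and 1038 with these groups fitted alone, in place of 2036.

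Of the 54 other genes, leaving out 1 library gave between 3 and 9 calls with insulin (3 without Control-STAM-nonINS replicate 1) and between 5 and 13 in the ieIRKO mice against the insulin-free controls (5 without Control-STAM-nonINS replicate 3, 13 without ieIRKO-STAM-INS replicate 1). The cause was not tested; these fits have fewer samples. Over all genes, such fits gave 824 to 1877, 29 to 50 and 1093 to 2274 calls.

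Changes of sign were found only for log2 fold changes that were not called. With upper-quartile scaling, Cftr between the INS groups was 8e-04. With epithelial scaling, under which the median of all genes was -0.23 with insulin and 0.17 by genotype (-0.0043 and 0.02 with TMM), Slc26a3, Slc26a6 and Gucy2c with insulin were -0.083, -0.050 and -0.12, and Cftr, Slc9a3, Slc12a2 and Guca2a by genotype 0.13, 0.013, 0.073 and 0.073. Leaving out 1 library moved the genotype value of Cftr from -0.073 to 0.050, of Guca2a from -0.21 to 0.030 and of Slc9a3 from -0.74 to 0.10. It moved the value with insulin of Slc9a3 from -0.64 to 0.11, of Slc26a6 from -0.14 to 0.31 and of Gucy2c from -0.038 to 0.16, and Slc26a3 in the ieIRKO mice against the insulin-free controls from -0.18 to 0.023.

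The replicate numbers did not pair the samples: deviations from the group means correlated at -0.094 to 0.179 (median 0.024, 14 pairs) between libraries of the same number and at -0.305 to 0.23 (median 0.003, 70 pairs) otherwise. With the replicate block, 1397, 30 and 1615 of all genes were called in the 3 comparisons, and Guca2a lost its calls, at -0.55 with insulin (edgeR adjusted p 0.0901) and -0.63 in the ieIRKO mice against the insulin-free controls (adjusted p 0.0524).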

Other observations

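Some genes followed single members closely over the 16 libraries, on log2 CPM with the group means removed and among 9441 genes of at least 10 CPM. Slc9a3, the most variable of the 9, was most like B4galt1 (r = 0.934), Igsf5 (0.915) and Smap2 (0.913). Slc26a6 was most like Sccpdh (0.949), Mall (0.947) and Epb41l4b (0.940), and Guca2b most like Ephx2 (0.936), Ano6 (0.911) and Pisd (0.907). Slc12a2 had the weakest leading partner, Prkca (0.795). Slc9a3 and Slc26a6 correlated at 0.624 with each other, and Slc9a3 with Guca2a at -0.468. These values describe libraries that share scaling and tissue make-up, and the genes were picked as the highest of many.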
